A study of Mus musculus with 2 samples.

Results

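The CC chemokine ligands Ccl3, Ccl4, Ccl6 and Ccl9 and the receptor Ccr1 were measured in GR1+ cells sorted from 4T1 breast carcinomas. The 5 genes were taken by name from the 32285 genes of the count matrices, by a rule that sets no threshold on their values, and all 5 were detected in neutrophils and in macrophages of both libraries. Ccl3 and Ccr1 were higher in neutrophils than in macrophages. Ccl3 had 4715 and 7310.2 CPM in neutrophils of the 2 tumors and 902 and 1516 CPM in macrophages. CPM is the sum of a gene's UMIs (counted transcript molecules) scaled to 1000000 UMIs of the class. Unnamed cells of neither class had more Ccl3 than neutrophils, at 5173 and 8996 CPM. Ccl4, Ccl6 and Ccl9 were higher in macrophages than in neutrophils. Against macrophages, the name neutrophil chemokines thus holds by level for Ccl3 but not for the other 3 ligands. The median gene was also higher in macrophages, with log2 ratios of neutrophils over macrophages of -1.17 in 4T1P and -1.01 in 4T1M. Ccl4 lay near that median at -1.32 and -1.08, and Ccl6 was at -1.60 and -0.58.

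Chemokines are small secreted proteins that direct the movement of leukocytes through G protein-coupled receptors, and the CC family is named for adjacent cysteines near the amino terminus. Ccl3 and Ccl4, also called MIP-1 alpha and MIP-1 beta, are made by activated myeloid cells and lymphocytes. Ccl3 signals through Ccr1 among other receptors. Ccl6 and Ccl9 are related rodent ligands of Ccr1 that are made by cells of the myeloid lineage, and Ccr1 is carried by neutrophils, monocytes and macrophages.

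The 4 ligands lie in a CC chemokine cluster of mouse chromosome 11 (GRCm38, GENCODE vM21 annotation). Ccl9 (chr11:83572919-83578636, minus strand, 4 exons) and Ccl6 (chr11:83587882-83593087, minus strand, 4 exons) are separated by 9245 bases. Ccl3 (chr11:83647844-83649355, minus strand, 3 exons) and Ccl4 (chr11:83662584-83664683, plus strand, 3 exons) are separated by 13228 bases. Ccr1 lies on chromosome 9 (chr9:123962124-123968692, minus strand, 2 exons), which also holds Ccr3 (chr9:124021972-124031689, plus strand). The processed transcript E230016K23Rik overlaps Ccl6 on the opposite strand.

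Promoters of Ccl6 and Ccl9 are shown because both genes were lower in macrophages of the 4T1M tumor, as described further on. The 250 bases before the RefSeq transcript start (GRCm38.p6) were available for 4 of the 5 genes, Ccl4 being the gene without an entry. Both stretches lie on the minus strand, at chr11:83593088-83593337 for Ccl6 and chr11:83578637-83578886 for Ccl9. Capitals mark runs of at least 10 bases found in both promoters.
Ccl6: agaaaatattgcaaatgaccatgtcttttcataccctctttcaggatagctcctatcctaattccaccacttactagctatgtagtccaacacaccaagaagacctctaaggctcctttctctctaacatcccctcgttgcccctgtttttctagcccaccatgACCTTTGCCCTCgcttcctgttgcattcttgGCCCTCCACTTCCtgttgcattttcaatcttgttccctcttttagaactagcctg
Ccl9: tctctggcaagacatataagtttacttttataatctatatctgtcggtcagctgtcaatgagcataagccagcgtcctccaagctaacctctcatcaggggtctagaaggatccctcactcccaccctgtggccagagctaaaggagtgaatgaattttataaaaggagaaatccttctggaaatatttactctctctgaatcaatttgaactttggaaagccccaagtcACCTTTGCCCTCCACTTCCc
The 19 capital bases of Ccl9, which begin at position -20 from its start, occurred in Ccl6 as separate runs of 12 and 13 bases that begin at -86 and -55. The longest run shared by the pair was 13 bases, against 7 to 9 bases for the other pairs among Ccl3, Ccl6, Ccl9 and Ccr1. Searched on both strands, the NF-kB motif matched 1 time each in the Ccl9 and Ccr1 promoters and is held by 7.01% of 27025 promoters of this length. The motif AGGAAG, the core read by ETS factors and PU.1, matched 2 times in Ccl6 and is held by 29.2% of promoters. The AP-1 motif TGANTCA matched 1 time in Ccl9 (6.87% of promoters), and the C/EBP motif TTGCNNAA matched in none of the 4 (9.55% of promoters). A match describes letters in this window and no binding was measured.

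Cells came from BALB/c mice of 6 to 8 weeks bearing 4T1 tumors, a mammary carcinoma line, and were taken by magnetic positive isolation for GR1, an epitope of Ly6G and Ly6C, at a baseline stage before any antibody was given. The Non-responding library came from the parental line 4T1P, whose tumors do not respond to anti-PD1. The Responding library came from 4T1M, a mutagenized derivative of the same line whose tumors respond, and the study names it 1 clone although its methods describe multiclonal mutagenized cells. Each library held pooled tumors of 5 mice according to the design record, although the study's text gives a smaller number, so each group is 1 library and the spread between mice cannot be measured.

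After a filter of 500 to 5000 genes and at most 10% mitochondrial UMIs, 1726 of 2947 barcodes of 4T1P and 3461 of 5004 of 4T1M were kept, with 12948585 and 19302483 UMIs. Neutrophils, cells with at least 1.5% of UMIs from S100a8 and S100a9 and under 0.5% from C1qa, C1qb, C1qc and Apoe, numbered 612 in 4T1P and 1686 in 4T1M. Macrophages, with under 1.5% from S100a8 and S100a9 and at least 0.3% from C1qa, C1qb, C1qc, Apoe, Csf1r, Cd68 and Fn1, numbered 798 and 976. Median depth was 3054.5 and 2957.5 UMIs in neutrophils and 9727 and 9213.5 in macrophages. The macrophage list of 9 markers summed to 651 and 715 CPM in neutrophils against 19844 and 19236 in macrophages. This gap is set in part by the class rule, which uses all of these markers except Adgre1 and Mrc1. Adgre1 had 2.40 and 4.71 CPM in neutrophils against 107 and 102 in macrophages, and Mrc1 had 9.19 and 6.69 against 669 and 334. All 9 macrophage markers and all 8 neutrophil markers had UMIs in both classes, and the libraries shared 5 barcodes. Intervals given are 95% and cover counting error only.

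Ccl3, a ligand of Ccr1, was the only ligand with a higher level in neutrophils than in macrophages. It had 11801 UMIs in 4T1P neutrophils, or 4715 CPM (4630.2 to 4801), and 48101 UMIs in 4T1M neutrophils, or 7310.2 CPM (7245 to 7376). In macrophages it had 902 and 1516 CPM. Neutrophils thus exceeded macrophages 5.23-fold in 4T1P (log2 2.39, 2.34 to 2.43) and 4.82-fold in 4T1M (log2 2.27, 2.24 to 2.30). The transcript was unevenly spread: the 10% of neutrophils with the most Ccl3 held 50.8% and 44.8% of its UMIs, and the highest cells had 320 and 327 UMIs.

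Ccl4, the ligand encoded next to Ccl3, had the opposite bias between the classes. Neutrophils had 1732 CPM in 4T1P and 3007 in 4T1M, and macrophages had 4322 and 6355. Macrophages therefore exceeded neutrophils 2.50-fold in 4T1P and 2.11-fold in 4T1M. In neutrophils Ccl4 was more concentrated than Ccl3, with 73.3% and 67.6% of its UMIs in the top 10% of cells, a share that a lower count also increases. The number of Ccl3 UMIs per Ccl4 UMI, which cancels the class total, was 2.72 (2.63 to 2.82) and 2.43 (2.39 to 2.47) in neutrophils and 0.209 and 0.239 in macrophages. The neighbouring genes were thus differently weighted in the 2 cell classes, and in the same way in both tumors.

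**Figure D1:**
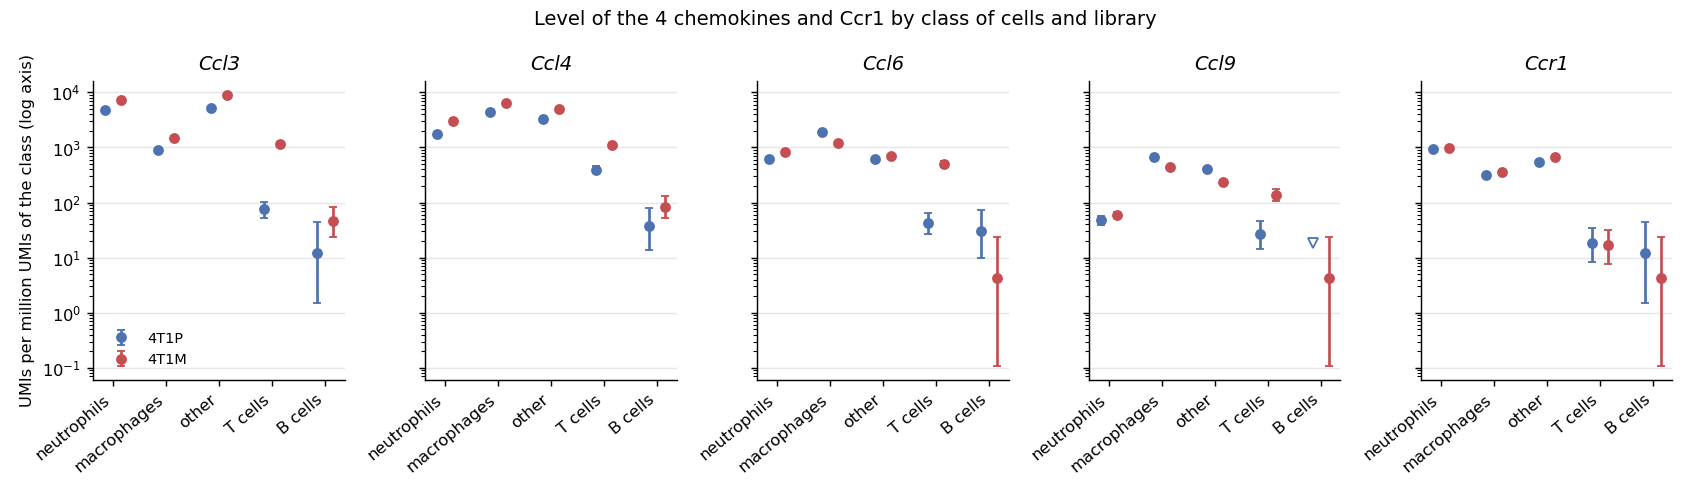
Level in CPM (log axis) of the 5 genes by cell class in the 4T1P and 4T1M libraries, with each point the sum over the cells of a class in 1 library, bars the exact 95% Poisson interval and the open triangle the limit for a sum of 0 UMIs. Ccl3 and Ccr1 are higher in neutrophils than in macrophages in both libraries, and Ccl4, Ccl6 and Ccl9 are higher in macrophages.

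Ccl6, a Ccr1 ligand of myeloid cells, was expressed by both classes. Its level was 629.7 CPM in 4T1P neutrophils and 812 in 4T1M neutrophils, against 1906 and 1218 in macrophages. The log2 ratio of neutrophils over macrophages was -1.60 in 4T1P, a 3.03-fold excess in macrophages, and -0.58 in 4T1M.

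Ccl9, the other rodent Ccr1 ligand, was mostly a macrophage transcript. It had 120 and 397 UMIs in neutrophils, or 47.9 and 60.3 CPM, against 684 and 436 CPM in macrophages, which was 14.3-fold and 7.23-fold higher. As a share of the macrophage level the neutrophil level was 7.01% in 4T1P and 13.8% in 4T1M, and this share differed among the 9 macrophage markers. It was 49.7% and 46.3% for Cd68, a lysosomal protein gene, and 6.61% and 10.6% for Csf1r, a growth factor receptor. For C1qa, C1qb, C1qc, Apoe, Fn1, Adgre1 and Mrc1 it lay between 1.37% (Mrc1) and 2.77% (C1qb) in 4T1P and between 2.002% (Mrc1) and 4.63% (Adgre1) in 4T1M, where C1q and Apoe are limited by the class rule itself. Only 42 of 612 and 126 of 1686 neutrophils held a Ccl9 UMI. The 5 and 20 cells with at least 5 UMIs carried 73 of the 120 and 243 of the 397 UMIs. Neutrophils with a Ccl9 UMI had 0.135% and 0.173% of their UMIs from macrophage genes, against 0.0572% and 0.0570% in the others. The part of free RNA or of macrophage doublets in neutrophil Ccl9 was not tested.

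Ccr1, the receptor of Ccl3, Ccl6 and Ccl9, was carried by both classes, with an excess in neutrophils per UMI of the class. It had 923 and 997 CPM in neutrophils and 322 and 354 in macrophages, a difference of 2.86-fold and 2.82-fold. This is not a difference per cell, because macrophages held more UMIs each. The Ccr1 counts were 2309 UMIs in 612 neutrophils and 2826 in 798 macrophages of 4T1P, and 6562 in 1686 and 3306 in 976 of 4T1M. Ccr1 UMIs were the most evenly spread of the 5 genes in neutrophils, with 28.1% and 30.4% in the top 10% of cells. Ccr3, an eosinophil receptor, had 5 and 18 UMIs in neutrophils and 1 and 4 in macrophages, the decoy receptor Ackr2 had 1 UMI in each set of neutrophils, and Ccr1l1 had none in either class.

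Between classes, 2 of the 5 genes were higher in neutrophils by a log2 ratio of at least 1 in 4T1P and 2 in 4T1M, where 10.2% and 11% of all genes with at least 50 UMIs were. In the other direction, 3 genes in 4T1P and 2 in 4T1M were higher in macrophages, where 53.6% and 50.3% of genes were. The median log2 ratio over all genes was -1.17 in 4T1P and -1.01 in 4T1M, so the Ccl4 ratios of -1.32 and -1.08 lay near the median gene. The Ccl6 ratio of -1.60 in 4T1P lay below that median and the ratio of -0.58 in 4T1M lay above it.

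Between tumors, the ligands of neutrophils were higher in 4T1M than in 4T1P. The log2 ratio, 4T1M over 4T1P, was 0.63 for Ccl3 (0.60 to 0.66, 1.55-fold) and 0.80 for Ccl4 (0.75 to 0.84, 1.74-fold). It was smaller for Ccl6, at 0.37 (0.29 to 0.45), and for Ccl9, at 0.33 (0.03 to 0.64). Ccr1 differed little, at 0.11 (0.04 to 0.18). Of the 5 genes, 2 were higher in 4T1M by a log2 ratio of at least 0.5, the fold used for libraries, where 12.7% of 6465 genes were, and 0 were lower, where 4.69% were. The median over all genes was 0.05, with the 10th and 90th percentiles at -0.35 and 0.58, so Ccl3 and Ccl4 lay above the 90th percentile. The median mitochondrial share of neutrophils was 2.76% in 4T1P and 1.81% in 4T1M, and with a limit of 5% the ratios were 0.72 for Ccl3 and 0.85 for Ccl4. Neutrophil Ccl9 rested on few cells, and without the top 1% of cells its ratio was 0.69 on 16.3 and 26.4 CPM.

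In macrophages, the ligands split into pairs. Ccl3 and Ccl4 were higher in 4T1M, with log2 ratios of 0.75 (0.71 to 0.79) and 0.56 (0.54 to 0.57). Ccl6 and Ccl9 were lower in 4T1M, with log2 ratios of -0.65 (-0.68 to -0.61) and -0.65 (-0.71 to -0.59), so that 4T1P exceeded 4T1M 1.56-fold and 1.57-fold. Ccr1 was again nearly level, at 0.13 (0.06 to 0.21). The counts were 2 genes higher, where 5.55% of 9874 genes were, and 2 lower, where 5.85% were. The median over all genes was -0.03, with the 10th and 90th percentiles at -0.39 and 0.34. With macrophages limited to 5% mitochondrial UMIs, the ratios of Ccl6 and Ccl9 shrank to -0.37 and -0.38 and that of Ccl4 to 0.47, so that these 3 genes no longer passed the fold, while median mitochondrial shares of macrophages were 4.50% in 4T1P and 4.22% in 4T1M.

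Ccl6 and Ccl9 thus had ratios of opposite sign in neutrophils and macrophages of the same libraries. The difference of the log2 ratios, neutrophils minus macrophages, was 1.01 (0.93 to 1.10) for Ccl6 and 0.98 (0.68 to 1.28) for Ccl9. In 4T1P 86 of the 120 neutrophil Ccl9 UMIs lay in 10 cells, and in 4T1M 178 of 397 did. Among neutrophils with 1.5% to 2% of UMIs from S100a8 and S100a9, Ccl9 was 461 CPM in 4T1P and 212 in 4T1M. For a share of 2% to 5% Ccl9 was 54.9 and 60.3 CPM, and for at least 15% it was 20.9 and 26.9, with overlapping intervals in both bands. Only for 5% to 15% were the intervals apart, at 23.5 (14.7 to 35.6) in 4T1P and 68.7 (58.7 to 79.9) in 4T1M. With 1 library per group the differences between tumors have no replicate check, and tumor line, library and pool of mice cannot be told apart.

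**Figure D2:**
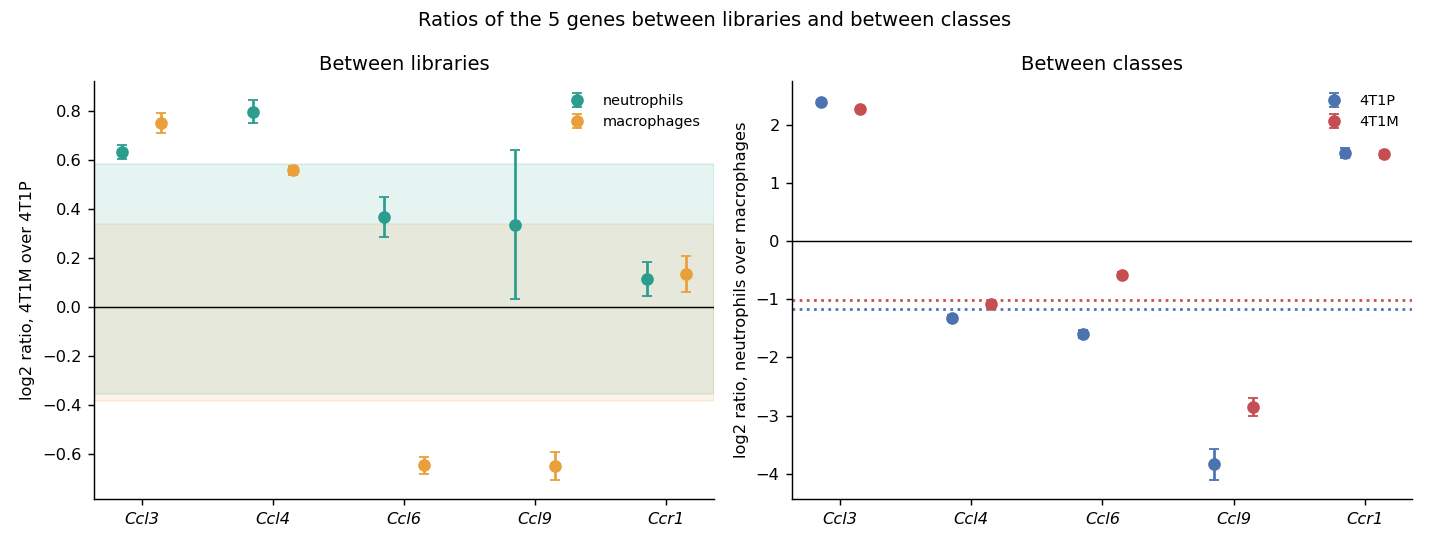
Left, log2 ratio of CPM, 4T1M over 4T1P, of the 5 genes in neutrophils and macrophages, with the 10th to 90th percentile of all genes shaded per class; right, log2 ratio of neutrophils over macrophages per library, with dotted lines at the median of all genes; bars are exact 95% conditional intervals. Ccl3 and Ccl4 are above 0 in both classes, Ccl6 and Ccl9 are above 0 in neutrophils and at -0.65 in macrophages, and Ccr1 is near 0.

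Shares of positive cells were compared at an equal depth of 1000 UMIs drawn from each cell. Shallower cells, 4 neutrophils of 4T1M and 26 and 37 macrophages of 4T1P and 4T1M, were left out. Ccl3 was found in 67.5% of 4T1P neutrophils (63.6 to 71.2) and 79.2% of 4T1M neutrophils (77.2 to 81.1), and Ccl4 in 33.0% (29.3 to 36.9) and 46.1% (43.7 to 48.6). Without thinning these shares were 80.2% and 89.0% for Ccl3 and 46.4% and 62.6% for Ccl4. The intervals of the 2 tumors did not overlap for either gene. The share of all genes with intervals apart at this depth is not given here, and the intervals hold no spread between mice. Ccl6 was found in 32.5% (28.8 to 36.4) and 35.9% (33.6 to 38.2) of neutrophils, and Ccr1 in 59.0% (55.0 to 62.9) and 62.8% (60.5 to 65.2), with overlapping intervals for both genes. Ccl9 was found in 1.31% and 3.15% of neutrophils. B cells, taken as the background class although activated lymphocytes can make Ccl3 and Ccl4, gave shares between 0% and 6.67% for the 5 genes on 31 and 30 cells with median depths of 4419 and 6673.5 UMIs. Ccl9 had 0 positive B cells in either library, which allows a share of up to 9.68% and 10.0%, so at this depth the neutrophil share of Ccl9 was not distinguishable from background.

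Macrophages mirrored the levels. The Ccl6 share was 57.8% in 4T1P and 42.9% in 4T1M, and the Ccl9 share was 40.4% and 25.8%. The shares of Ccl3 were 38.1% and 49.0% and those of Ccl4 were 71.8% and 75.5%. Lower Ccl6 and Ccl9 in 4T1M macrophages was thus seen in the number of positive cells as well as in the summed UMIs.

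Within neutrophils, Ccl3 and Ccl4 followed the level of the inflammatory genes Il1a, Tnf and Il23a, which encode cytokines. Neutrophils were divided into bands with 0, 1 to 4 and at least 5 UMIs of these 3 genes per 1000, which are ranges of a score and not cell types. Mean Ccl3 per 1000 UMIs was 3.39, 7.10 and 16.8 over the bands in 4T1P and 4.31, 7.73 and 16.2 in 4T1M. Mean Ccl4 was 1.45, 2.34 and 6.69 in 4T1P and 1.98, 3.06 and 6.02 in 4T1M. Both genes therefore increased from the lowest to the highest band in each tumor. Ccl6 did not share this order, at 0.667, 0.540 and 0.469 in 4T1P and 0.978, 0.863 and 0.848 in 4T1M.

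The difference between tumors in Ccl3 and Ccl4 was not uniform over these bands. For Ccl3 the log2 ratio was 0.35 in the lowest band, 0.12 in the middle and -0.051 (-0.18 to 0.08) in the highest. For Ccl4 it was 0.45, 0.38 and -0.15 (-0.36 to 0.06). In the highest band the intervals of both genes held 0, and for Ccl6, with ratios of 0.55, 0.68 and 0.86 over the bands, the highest rested on 15 UMIs in 4T1P (0.11 to 1.71). The highest band held 5.23% of 4T1P neutrophils (32 cells, 3.60 to 7.30) and 18.0% of 4T1M neutrophils (303 cells, 16.2 to 19.9). At its lower edge, 12 and 83 cells had 4 UMIs and 6 and 64 cells had 5. When the 4T1M means were reweighted to the band shares of 4T1P, an alternative chosen after seeing the data, the log2 ratio of the mean per 1000 UMIs, which weighs each cell the same, went from 0.59 to 0.19 for Ccl3 and from 0.66 to 0.34 for Ccl4. For Ccl6 it went from 0.55 to 0.60. With bands of the granule and interferon genes, described below, reweighting changed the ratios little. Ccl3 stood at 0.587 with the granule bands and 0.624 with the interferon bands, and Ccl4 at 0.654 and 0.611. Il1a and Tnf, which help form the inflammatory bands, were themselves higher in 4T1M neutrophils, with log2 ratios of 1.33 and 1.24. Reweighting to fewer cells of the high inflammatory bands therefore decreases the ratio of any gene that rises over them. The part of the mix of cells in the difference between tumors was not tested.

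**Figure D3:**
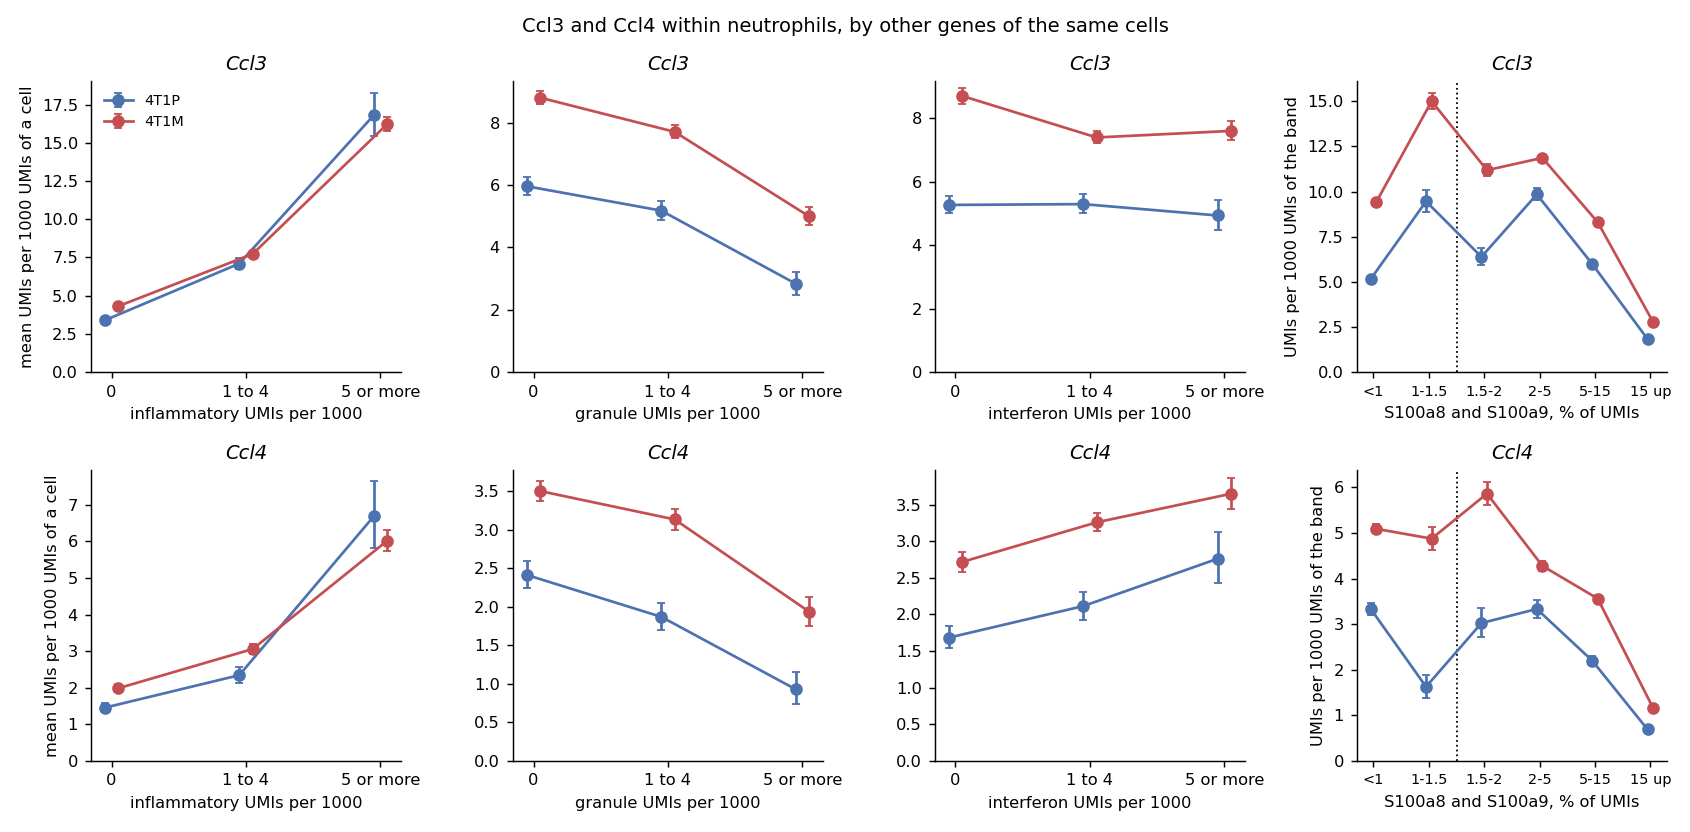
Mean UMIs per 1000 of Ccl3 and Ccl4 in neutrophils of 4T1P and 4T1M by band of the inflammatory, granule and interferon genes, and UMIs per 1000 of the summed cells by share of UMIs from S100a8 and S100a9, where the dotted line is the threshold of the class, all with 95% Poisson intervals. Points left of the dotted line are cells of neither class, without macrophages. Ccl3 and Ccl4 increase with the inflammatory band and decrease with the granule band, and 4T1M lies above 4T1P except in the highest inflammatory band.

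The granule genes Camp, Ltf, Ngp and Lcn2, which mark neutrophils that still carry secondary granule transcripts, ran the other way. Over bands of 0, 1 to 4 and at least 5 granule UMIs, mean Ccl3 was 5.96, 5.18 and 2.83 in 4T1P and 8.80, 7.70 and 4.99 in 4T1M. Ccl4 was 2.41, 1.87 and 0.929 in 4T1P and 3.50, 3.13 and 1.94 in 4T1M. Ccr1 also decreased, from 1.25 to 0.619 and from 1.19 to 0.818. In each granule band 4T1M exceeded 4T1P for both ligands. Over bands of interferon response genes such as Ifit1 and Isg15, Ccl3 was nearly flat in 4T1P, at 5.26, 5.29 and 4.93, and was highest in the lowest band in 4T1M, at 8.70, 7.39 and 7.60. Ccl4 increased from 1.68 to 2.76 in 4T1P and from 2.72 to 3.65 in 4T1M.

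The share of UMIs from S100a8 and S100a9, alarmins of neutrophils that served to define the class, was itself related to the ligands. Neutrophils with at least 15% of UMIs from this pair had 1828 CPM of Ccl3 in 4T1P and 2772 in 4T1M, against 5991 and 8301 for a share of 5% to 15% and 9843 and 11867 for 2% to 5%. Cells just inside the threshold, with 1.5% to 2%, had 6382 and 11182 CPM of Ccl3. Cells of neither class just outside, with 1% to 1.5%, had 9457 and 15005, and macrophages were left out of this comparison. Ccl3 was thus high on both sides of the threshold in cells that were not called macrophages. Ccl9 was 461 and 212 CPM just inside the threshold and 54.9 and 60.3 for a share of 2% to 5%, so part of neutrophil Ccl9 lay at the edge of the class.

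Macrophages were divided by genes that mark their states, also chosen after seeing the data. Over bands of 0, 1 to 4 and at least 5 UMIs per 1000 of C1qa, C1qb and C1qc, complement genes of tissue macrophages, Ccl6 was 1.59, 2.34 and 2.05 per 1000 in 4T1P and 1.59, 1.60 and 0.976 in 4T1M. The Ccl6 levels were the same to 3 digits in the band of 0 C1q UMIs per 1000 and differed by a log2 ratio of -0.55 and -1.07 in the higher bands. Ccl9 was lower in 4T1M in every band, at 1.02, 0.833 and 0.622 in 4T1P against 0.718, 0.399 and 0.310 in 4T1M.

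Arg1, arginase, and Mrc1, a mannose receptor, both of which are genes of alternatively activated macrophages, also divided the Ccl6 level. Ccl6 was 1.65 in 4T1P macrophages without an Arg1 UMI and 2.26 in those with one, and 0.645 and 1.77 in 4T1M. The ratio between tumors was -1.35 without Arg1 and -0.36 with it, and that of Ccl9 was -1.53 and -0.39. At this depth Arg1-positive cells made up 63.9% of 772 macrophages in 4T1P and 53.2% of 939 in 4T1M. Macrophages with an Mrc1 UMI at this depth, 35.6% and 19.7% of these cells, had more Ccl6 than those without, at 2.78 against 1.63 in 4T1P and 1.54 against 1.17 in 4T1M. By mitochondrial share, the log2 ratio of Ccl6 was -0.32 for macrophages up to 2%, -0.38 for 2% to 5% and -1.13 for 5% to 10%, and that of Ccl9 was -0.096 (-0.27 to 0.08), -0.46 and -1.25. The ratios of Ccl6 and Ccl9 were furthest from 0 in the band of 5% to 10%. For Ccl9 the interval of the lowest band held 0. Over the same bands the ratio was 1.37, 0.47 and 0.67 for Ccl3 and 1.17, 0.36 and 0.62 for Ccl4. These were furthest from 0 up to 2% and did not pass the fold for 2% to 5%. The part of the mitochondrial share in the differences was not tested.

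**Figure D4:**
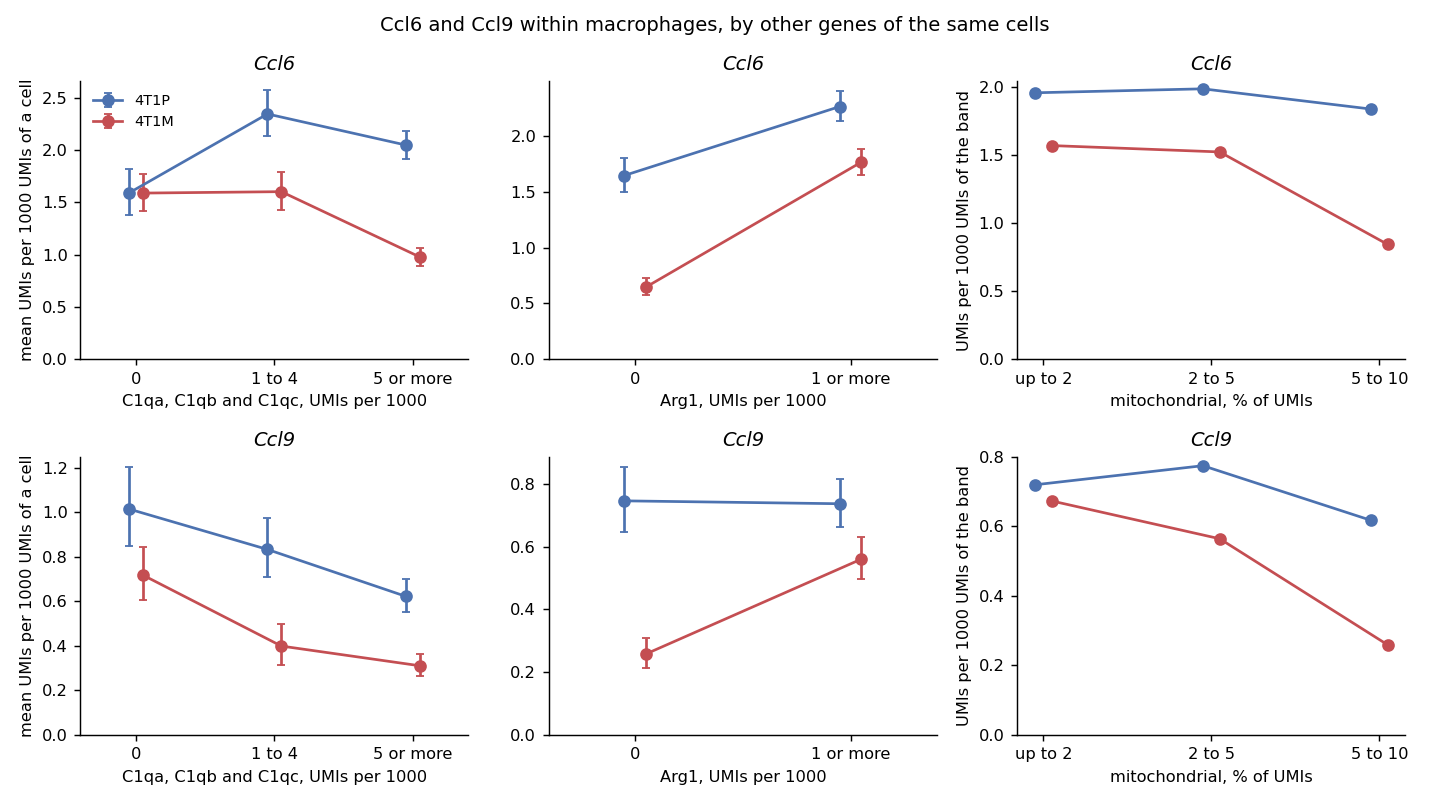
UMIs per 1000 of Ccl6 and Ccl9 in macrophages of 4T1P and 4T1M by band of C1q, of Arg1 and of mitochondrial share, with 95% Poisson intervals for the first 2 and none drawn for the last. 4T1M lies below 4T1P except for Ccl6 in cells without C1q, where the levels are 1.59 in both libraries.

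The combinations of ligands held by individual cells differed between the classes, as did the share of each ligand alone. At 1000 UMIs per cell, 19.0% of 4T1P neutrophils and 10.2% of 4T1M neutrophils held no ligand, 37.9% and 34.2% held 1, 33.2% and 37.8% held 2, and 9.80% and 16.8% held 3. All 4 ligands were found in 0.163% and 1.01% of neutrophils and in 9.97% and 8.41% of macrophages. Ccl3 without Ccl4 was the larger fraction in 4T1P neutrophils, with 40.4% of cells against 27.1% with both, and in 4T1M the fractions were 38.7% and 40.5%. In macrophages Ccl4 without Ccl3 made up 38.3% and 31.2% of cells and Ccl3 without Ccl4 only 4.66% and 4.69%. A ligand together with Ccr1 was found in 49.2% and 56.7% of neutrophils and in 21.6% and 23.1% of macrophages. For Ccl3 with Ccl4, the product of the 2 single shares was 22.3% and 36.5% in neutrophils and 27.3% and 37.0% in macrophages. The observed share was 1.22 and 1.11 times this product in neutrophils and 1.22 and 1.20 times in macrophages, which is similar in both classes. For the other combinations no such product is given here.

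Detection of neighbouring genes in a cell went together for Ccl3 with Ccl4 in both classes and for Ccl6 with Ccl9 in macrophages. Ccl4 was detected in 40.2% of 4T1P neutrophils with Ccl3 and 18.1% of those without, and in 51.1% and 27.1% in 4T1M. In macrophages the shares were 87.8% and 61.9% in 4T1P and 90.4% and 61.2% in 4T1M. Ccl9 was detected in 51.8% of 4T1P macrophages with Ccl6 and 24.8% of those without, and in 39.7% and 15.3% in 4T1M. Ccl6 was detected in 33.7% of 4T1P neutrophils with Ccl4 (27.2 to 40.6) and 32.0% of those without (27.5 to 36.7), and in 40.2% (36.7 to 43.8) and 32.1% (29.1 to 35.3) in 4T1M, so the intervals were apart in 4T1M but not in 4T1P. Ccr1, which lies on another chromosome, was detected in 61.7% (56.9 to 66.5) of 4T1P neutrophils with Ccl3 and 53.3% (46.1 to 60.4) of those without. In 4T1M the shares were 64.3% (61.6 to 66.8) and 57.4% (52.1 to 62.7), so the intervals overlapped in both libraries. Overlap does not show that the shares are equal. At 2000 UMIs per cell the shares were 79.3% and 64.3% in 4T1P, with intervals apart, and 81.7% and 79.7% in 4T1M, with overlap. In macrophages at 1000 UMIs, Ccr1 was detected in 28.8% of 4T1P cells with Ccl9 and 18.5% of those without, with intervals apart. In 4T1M these shares were 28.5% and 24.2%, with overlap, and at 2000 UMIs the intervals overlapped in both libraries. Intervals apart were thus not limited to neighbouring genes. All values are shares over cells of 1 library each and describe those libraries.

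**Figure D5:**
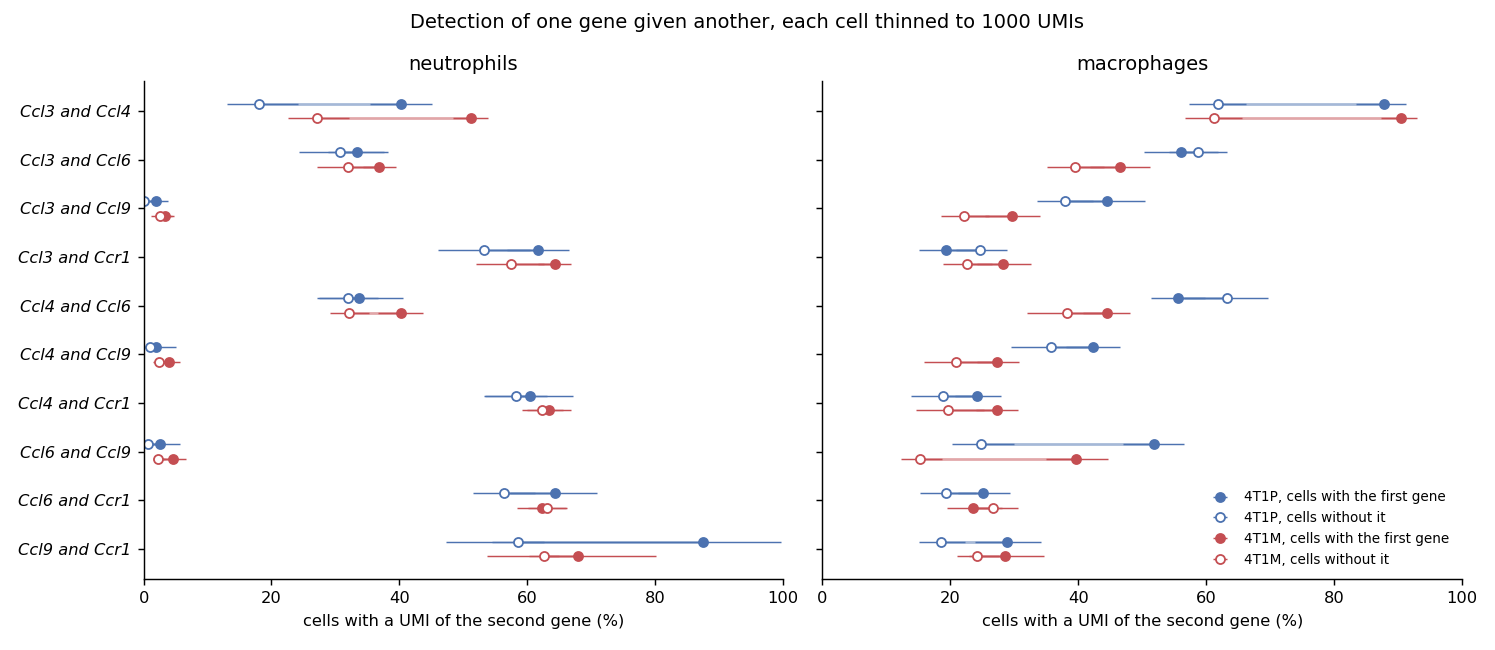
Share of cells (percent, at 1000 UMIs per cell) with the second gene of a pair among cells with and without the first, in neutrophils and macrophages of each library, with 95% Clopper-Pearson intervals. The gap is wide for Ccl3 with Ccl4 in both classes and for Ccl6 with Ccl9 in macrophages, and the wide gap of Ccl9 with Ccr1 in 4T1P neutrophils has an interval that covers most of the axis.

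The genes most like each ligand over cells differed by pair. Likeness was the Pearson correlation of log2(1 + UMIs) at 1000 UMIs per cell, over 612 and 1682 neutrophils and 772 and 939 macrophages, where all points share a library and sparse counts hold correlations low. In neutrophils Ccl3 was nearest to Cxcl2, a neutrophil-attracting chemokine, with 0.52 in 4T1P and 0.57 in 4T1M, followed by the atypical receptor Ccrl2 (0.45 and 0.41) and the inflammasome sensor Nlrp3 (0.37 and 0.40). Ccl4 was nearest to Ccl3, with 0.35 and 0.38. In neutrophils Ccl6 was nearest to Wfdc17, a gene beyond Ccl4 on chromosome 11, with 0.16 and 0.22. Ccr1 was nearest to the granule proteoglycan gene Srgn, with 0.22 and 0.17. These correlations of Ccl6 and Ccr1 are weak.

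In macrophages Ccl3 was nearest to Cxcl2 (0.38 and 0.51) and Ccl4 (0.38 and 0.47), and Ccl4 to Cxcl2 (0.49 and 0.56) and Il1a (0.38 and 0.47). Ccl6 was nearest to Ccl9 (0.42 and 0.37), Wfdc17 (0.39 and 0.39) and Arg1 (0.22 and 0.35). Wfdc17 (chr11:83703991-83706268) lies 39307 bases beyond Ccl4. Ccl3 and Ccl4 each stood among the other's 3 nearest genes in macrophages, and so did Ccl6 and Ccl9.

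The other CC chemokines were mostly higher in macrophages, as were many genes. Of 14 listed genes, 7 in 4T1P and 8 in 4T1M had at least 50 UMIs, and 0 were higher in neutrophils by a log2 ratio of 1, while 6 and 8 were higher in macrophages, where 53.6% and 50.3% of all genes were. Their median log2 ratios were -4.74 and -3.83, against -1.17 and -1.01 for all genes. Ccl2, which attracts monocytes, had 97.5 and 189 CPM in neutrophils against 859 and 873 in macrophages. Between tumors, 3 of 6 measured in neutrophils were higher in 4T1M (12.7% of all genes) and 1 lower (4.69%), with a median of 0.51. The higher genes were Ccl2, Ccl5 and Ccl7, on 244, 13 and 46 UMIs in 4T1P and 1241, 159 and 425 in 4T1M. The lower was Ccl8, on 29 and 53 UMIs, with an interval that held 0 (-1.20 to 0.18). The part of free RNA or of macrophage doublets in these neutrophil levels was not tested. In macrophages 3 of 8 were higher (5.55% of all genes) and 1 lower (5.85%), with a median of -0.07. Ccl5, a T cell and monocyte attractant and the next CC chemokine gene beyond Ccl9, had 236 CPM in 4T1P macrophages and 571 in 4T1M macrophages. Ccl24, an eosinophil attractant, had 529 and 198 CPM, the lower level in 4T1M as for Ccl6 and Ccl9.

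Of 8 other CC receptors, 2 had enough UMIs in neutrophils and 4 in macrophages, of which 1 and 2 were higher in 4T1M and 0 lower, where 12.7% and 5.55% of all genes were higher and 4.69% and 5.85% lower. The gene past the fold in neutrophils was Ccr2, on 16 and 147 UMIs. Those in macrophages were Ccr7, on 30 and 61 UMIs, and Ccr9, on 42 and 85. Ccrl2, which presents chemerin without signalling, had 3466 and 4865 CPM in neutrophils and 943 and 1331 in macrophages. Its log2 ratios between tumors, 0.489 and 0.497, did not pass the fold. Ccr2, the monocyte receptor of Ccl2, had 502 and 414 CPM in macrophages and 6.39 and 22.3 in neutrophils.

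NF-kB response genes, a list of 22 genes known as targets of this factor, were compared with the ligands. Cytokines, chemokines, feedback inhibitors and subunits of NF-kB itself are among them. In neutrophils 10 of 22 were higher in 4T1M by the fold, where 12.7% of all genes were, and 0 lower, where 4.69% were. Their median log2 ratio was 0.47 against 0.05 for all genes. In macrophages 0 of 22 passed the fold in either direction, where 5.55% of all genes were higher and 5.85% lower, with a median of 0.18, although Ccl3 and Ccl4 did. Cxcl2, a neutrophil-attracting chemokine, had 34683 and 46282 CPM in neutrophils, a log2 ratio of 0.42. Nfkbia, the inhibitor of NF-kB, had 6078 and 8526 CPM (0.49), and Cxcl3, another neutrophil attractant, had 1701 and 2574 (0.60). Il1b, interleukin 1 beta, was nearly level at 9716 and 10068 CPM (0.05). Il1a and Tnf stand both in this list and among the inflammatory genes that formed the bands.

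Cells of neither class carried the ligands as well. In the remaining unnamed cells, 214 in 4T1P and 676 in 4T1M, Ccl3 was 5173 and 8996 CPM and Ccl4 3328 and 5091, while Ccr1 was 547 and 681. Both ligands were thus above their neutrophil levels, which were 4715 and 7310.2 CPM for Ccl3 and 1732 and 3007 for Ccl4. Neutrophil markers summed to 8131 and 13469.6 CPM in the unnamed cells and macrophage markers to 3819.8 and 3351. T cells of 4T1M had 1178 CPM of Ccl3 and 1121 of Ccl4 against 75.8 and 393 in 4T1P. A single 4T1M cell with 32 UMIs of Mcpt8, a basophil protease, held 403 of the 628 Ccl3 UMIs and 400 of the 598 Ccl4 UMIs of that class. Without it the T cell levels were 426 and 375 CPM. B cells had 12.3 and 46.6 CPM of Ccl3 and 36.9 and 84.7 of Ccl4.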

How the data were processed

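GR1+ cells of 4T1P and 4T1M tumors were profiled by 10x single-cell RNA-seq, with 1 pooled library per group. The files deposited hold unnormalized UMI counts for each gene and barcode, made with Cell Ranger 4.0.0 on mm10 per the file headers and processing notes. Whether the kit read the 3' or the 5' end is not given in the sources used here, so levels of different genes may not be comparable. Different genes were set side by side for Ccl3 and Ccl4, as UMIs and as shares of cells. They were also ranked to choose which NF-kB genes to name. Counts were filtered on genes and mitochondrial UMIs, assigned to classes by marker shares, summed per class and library and scaled to CPM with Python 3.11.15, numpy 2.4.6, pandas 2.3.3 and scipy 1.17.1. Poisson, conditional binomial and Clopper-Pearson intervals are exact. No doublet caller was run, and leaving out the deepest 5% of cells was an alternative. Background shares cover genes whose UMIs summed to 50 or more. Other alternatives were TMM (edgeR 4.0.16) and DESeq2 1.42.0 size factors for scaling only, stricter class and mitochondrial limits, totals without S100a8 and S100a9, equal weight per cell, and other thinning. Genes were named as members, receptors, other CC ligands and receptors, the 4 NF-kB genes of highest CPM, and the 3 nearest genes per member. Not every listed receptor is reported here. Members and lists were chosen with earlier results of these data known. The calculations were tested on simulated counts.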

Additional observations from a re-analysis of the deposited data

Results flagged for a closer look

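Ccl6 and Ccl9 had ratios of opposite sign in the 2 cell classes. The log2 ratio of 4T1M over 4T1P in neutrophils minus that in macrophages was 1.01 for Ccl6 and 0.98 for Ccl9, and with 1 library per group the difference was not tested. The neutrophil ratio of Ccl9 rested on 120 and 397 UMIs, of which 86 and 178 lay in 10 cells of each library.

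Barcodes outside the filter on genes and mitochondrial UMIs, which no comparison used, also held the transcripts. In 4T1P and 4T1M they had 782 and 2013 CPM of Ccl3, 1899.8 and 2477 of Ccl4, 844 and 532 of Ccl6, 252 and 90.4 of Ccl9, and 252 and 425 of Ccr1. Each gene had the same direction between tumors there as in macrophages. The mix of these barcodes differed between tumors. Neutrophil markers summed to 10966 CPM in 4T1P and 25457 in 4T1M, and macrophage markers to 10108 and 8350. Barcodes over 5000 genes held 5648414 of 8907072 UMIs in 4T1P and 1993705 of 5001474 in 4T1M. The part of this mix in the directions was not tested.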

How the results depend on the processing

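No paired analysis was possible because each group has 1 library and the labels give no replicate numbers. Every ratio of a gene between tumors kept its sign under the alternatives to the filter, scaling and class thresholds. Over these alternatives the log2 ratio in neutrophils was 0.52 to 0.72 for Ccl3, 0.56 to 0.85 for Ccl4, 0.25 to 0.45 for Ccl6, 0.12 to 0.86 for Ccl9 and 0.01 to 0.13 for Ccr1, and in macrophages 0.69 to 0.86 for Ccl3, 0.47 to 0.59 for Ccl4, -0.97 to -0.37 for Ccl6 and -0.90 to -0.38 for Ccl9. With a mitochondrial limit of 5%, 1 gene was higher in 4T1M macrophages and 0 lower. Between classes of 4T1M, 1 gene instead of 2 was lower in neutrophils when the total left out S100a8 and S100a9, when each cell weighed the same and, added after seeing the data, under a neutrophil threshold of 0.5%. Within neutrophils with at least 5 inflammatory UMIs per 1000, also added after seeing the data, the ratios of Ccl3 and Ccl4 were -0.051 and -0.15. With genes of at least 1 UMI, 31.5% of genes were higher and 20.5% lower in 4T1M neutrophils, and 18.6% and 19.9% in macrophages. With a log2 ratio of 1 these shares were 2.78% and 0.588% in neutrophils and 1.25% and 1.003% in macrophages. The cause of these shifts was not tested.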
